A study of Mus musculus with 18 samples.

Results

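The comparison set primary mouse hepatocytes given IL-6 and then HGF against unstimulated hepatocytes of the same age in culture, at 8, 12 and 24 h. Its members were 6 of the 18 arrays of the series, 3 with IL-6 plus HGF and 3 controls, chosen by stimulus and hour and paired by hour. The cells came from male C57BL/6N mice of 8 to 12 weeks, from 1 animal or a pool of up to 3, and were grown below confluence on collagen I. All dishes had spent time in serum-free medium with dexamethasone and then in a starvation medium without it. Stimulated dishes received rhIL-6 at 40 ng/ml at 0 h and rmHGF at 40 ng/ml at 4 h, and control dishes received neither. Every hour therefore counts from IL-6, and the cells read at 8 h had been with HGF since 4 h. RNA was read on one-color Affymetrix arrays, 1 array for each stimulus and hour, so the 3 hours stood in for replicates and their number limits the precision. No source states that dishes came from separate animals, and the p-values therefore rest on the spread among dishes and hours alone, which may be technical. The arrays held neither HGF alone nor IL-6 alone beyond 4 h, so the effects of HGF and of a longer time with IL-6 cannot be told apart here.

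IL-6 binds its receptor together with gp130, and the kinases of the JAK family then activate STAT3, which turns on acute-phase genes and its own inhibitor, Socs3. HGF binds Met, a receptor tyrosine kinase that feeds the ERK and AKT pathways and drives hepatocytes to spread, migrate and divide. Hepatocytes in culture also lose liver functions with time, which is why each hour was set against a control of the same hour.

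Each gene was represented by its brightest probe set on average over all 18 arrays, values were log2 signals, and a difference is IL-6 plus HGF minus control at the same hour. In the limma fit of the 6 arrays with the hour as a block, 461 of 18193 genes (2.53%) were higher and 1176 (6.46%) were lower at an adjusted p under 0.05, which is what "called" means throughout. Of these, 49 and 150 differed by at least 1 log2, or by a factor of at least 2, in the mean of the 3 hours. In all 461 and all 1176 the sign was shared by 3 of 3 hours, which a fit with the spread between hours as its error favours. Over all genes 23.6% were positive and 24.6% negative at all 3 hours. In 361 of the called higher genes and 812 of the called lower genes the 3 stimulated arrays did not overlap the 3 controls, against 3438 (18.9%) of all genes. The higher genes made up 28.2% of the calls, and 19.2% or 43.1% after each array was centred on the median of its probe sets or of its genes.

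At a single hour there was no test, and genes past 1 log2 were counted. At 8 h 52 genes (0.286%) were higher and 112 (0.616%) lower by that much. At 12 h there were 82 (0.451%) and 245 (1.35%), and at 24 h 115 (0.632%) and 215 (1.18%). The spread of the differences over all genes was 0.28 (SD) at 8 h and 0.33 at both later hours, around medians within 0.01 of 0. Among the 52 genes higher by 1 log2 at 8 h, 32 were still so at 24 h and 12 (23.1%) had at most 0.5 of their difference left, 3 of them with the opposite sign. Among the 112 lower genes these counts were 67, 21 (18.8%) and 4. Read backwards, 68 (59.1%) of the 115 genes higher by 1 log2 at 24 h had shown at most 0.5 of that difference at 8 h, and so had 101 (47%) of the 215 lower ones. The size was reached at all 3 hours by 25 higher and 64 lower genes.

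To describe time courses, a called gene was placed in the fading class if its difference at 24 h was at most 0.5 of that at 8 h, in the growing class if the difference at 8 h was at most 0.5 of that at 24 h, and in the steady class otherwise. The steady class held 353 (76.6%) of the higher and 901 (76.6%) of the lower genes, the growing class 80 (17.4%) and 212 (18%), and the fading class 28 (6.07%) and 63 (5.36%). The matched fit favours steady differences, since the spread between hours is its error. The classes are descriptions of single arrays. The test of a change of the difference with the hour, fitted on 8 arrays that included the combined stimulus at 9 and 10 h, called 0 of 18193 genes (0%) in limma. The smallest adjusted p was 0.114 and 623 genes had an unadjusted p under 0.05.

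**Figure D1:**
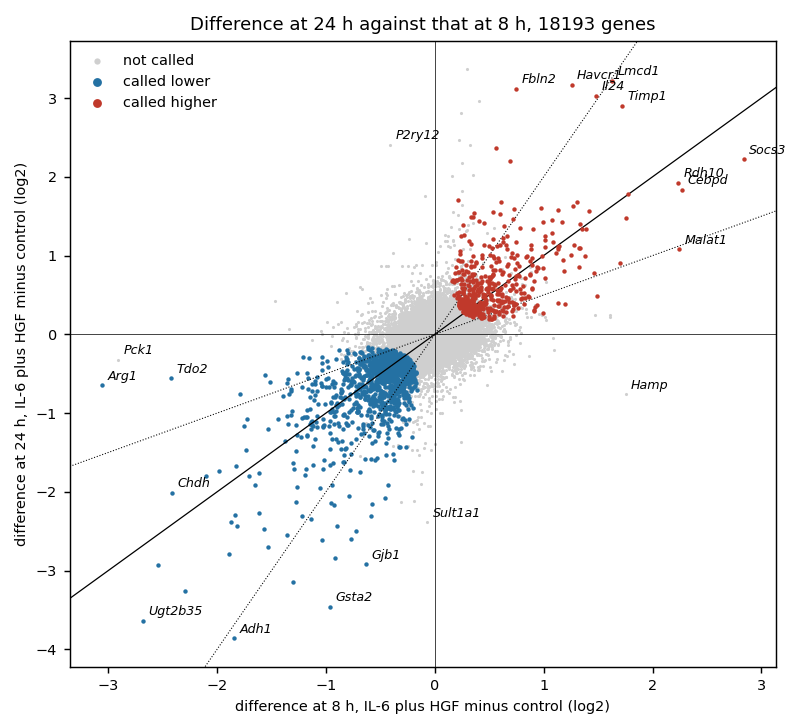
Each point is a gene, with its difference (IL-6 plus HGF minus control, log2) at 8 h on the horizontal axis and at 24 h on the vertical axis, coloured by its call in the matched fit. The solid line marks equal differences and the dotted lines a ratio of 0.5 either way. Socs3 lies at 2.84 and 2.23, Fbln2 at 0.75 and 3.12, Arg1 at -3.06 and -0.64, and Hamp at 1.75 and -0.76.

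The cells carried hepatocyte RNA in both groups. Albumin, Alb, was at 14.86, 14.85 and 14.72 in control and 14.82, 14.80 and 14.67 with IL-6 plus HGF. These levels were near the largest value on any array, 15.05. Of 17 hepatocyte markers 1 was higher and 6 lower, and 15 were negative at all 3 hours, compared with 24.6% of all genes. Their medians were -0.14, -0.34 and -0.51 at 8, 12 and 24 h. Without 1 pair 1 was higher and 4 or 6 lower. Of 22 Kupffer cell markers 2 were lower, of 21 endothelial markers 3 were lower, and of 22 stellate cell and fibroblast markers 1 was higher and 1 lower. Of 12 cholangiocyte markers 3 were higher and 1 lower. Over all genes 2.53% were higher and 6.46% lower, and the lower counts of Kupffer and stellate markers were near that share. Without 1 pair 0 or 1 Kupffer markers, 1 to 5 endothelial markers and 0 stellate markers were called lower, and 1 to 3 cholangiocyte markers higher. The summed level of the Kupffer markers was 12.65 to 12.73 log2 in control and 12.30 to 12.42 with IL-6 plus HGF. That of the endothelial markers was 11.60 to 11.76 and 11.43 to 11.55, that of the stellate markers 11.66 to 12.16 and 11.66 to 12.23, and that of the cholangiocyte markers 11.11 to 11.80 and 11.55 to 12.62. The last sum included Cldn4, also listed as an injury gene, at 10.24, 10.33 and 10.24 in control and 10.85, 11.54 and 11.92 with IL-6 plus HGF. The median difference of the cholangiocyte list was only 0.07, -0.02 and 0.12 at 8, 12 and 24 h. The higher sum was therefore not shared by the list as a whole. The other cholangiocyte markers called higher were Sox9 and Onecut2, and Pkhd1 was the lower one. In bulk RNA fewer cells of a type and less RNA per cell cannot be told apart, and the part of these cells in the results was not tested. The log2 ratio of the 3′ to the 5′ actin control probes was 0.20 to 0.32 in control and 0.19 to 0.27 with IL-6 plus HGF, and for Gapdh -0.10 to -0.02 and -0.05 to -0.01. For the transferrin receptor it was 1.11 to 1.23 and 1.10 to 1.27, and for pyruvate carboxylase 1.40 to 1.47 and 1.15 to 1.43, the lowest being the stimulated array at 12 h. The part of RNA quality in the differences at 12 h was not tested.

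Some genes of the IL-6 receptor and STAT3 pathway were higher. Of 27 listed members 11 were higher and 1 was lower, against 2.53% and 6.46% of all genes, and the list medians were 0.10, 0.29 and 0.22 at 8, 12 and 24 h. Without 1 pair 10 or 11 were called higher and 0 lower. Socs3, which blocks the IL-6 receptor complex, was at 7.47, 7.28 and 7.23 in control and 10.31, 9.80 and 9.45 with IL-6 plus HGF. All stimulated arrays lay above every control, and the mean difference was 2.53 ± 0.12 (SE; adjusted p = 0.00102, limma), a 5.77-fold excess. Cebpd, a C/EBP transcription factor of acute-phase genes, was at 8.26, 8.40 and 8.57 in control and 10.54, 10.37 and 10.40 with IL-6 plus HGF, a mean difference of 2.03 ± 0.10 (adjusted p = 0.00102), although its other probe set differed by only 0.37. The difference of Socs3 ran 2.84, 2.52 and 2.23 over the hours and that of Cebpd 2.27, 1.97 and 1.83. Of the 3 matched hours both were largest at 8 h, and both were still present at 24 h. The stimulated level of Socs3 was 9.99 at 9 h and 11.04 at 10 h, hours without a control.

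All 12 called members of this list were in the steady class. Cish, a SOCS family inhibitor, differed by 1.14, 0.95 and 1.12 at 8, 12 and 24 h (mean 1.07 ± 0.08; adjusted p = 0.00175). Junb, an AP-1 subunit, differed by 1.35, 1.01 and 1.33 (adjusted p = 0.00194). Neither gene's stimulated arrays overlapped its controls. Socs2, Pim1, Pim3, Osmr, Il4ra, Il1r1 and Stat3 itself were also higher, and Lifr, a receptor subunit of IL-6 family cytokines, was the member called lower. At 24 h 5 of the 27 members were higher by 1 log2 or more, compared with 4 at 8 h.

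Windows of 250 bases before the start of transcription are given for 4 called genes, because they hold letters that STAT or AP-1 proteins are known to bind. The letters were TTCNNNGAA for STAT, TTCCNGGAA for its tighter form, which is contained in the former, and TGANTCA for AP-1, each searched on both strands. The sequences are RefSeq's on GRCm38.p6, 5′ to 3′ on the strand of the gene, with the matches in capitals. Socs3 has its STAT letters from 154 bases before the start, in chr11:117969367-117969616 on the minus strand.
Socs3: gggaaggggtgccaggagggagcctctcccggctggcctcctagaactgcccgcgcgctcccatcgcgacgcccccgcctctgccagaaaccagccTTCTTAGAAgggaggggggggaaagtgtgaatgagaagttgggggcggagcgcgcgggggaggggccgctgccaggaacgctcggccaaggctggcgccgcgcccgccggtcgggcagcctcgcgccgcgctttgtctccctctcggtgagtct
Cldn4, a tight junction gene that was higher, has AP-1 letters from 240 and from 158 bases before the start, in chr5:134946935-134947184 on the minus strand.
Cldn4: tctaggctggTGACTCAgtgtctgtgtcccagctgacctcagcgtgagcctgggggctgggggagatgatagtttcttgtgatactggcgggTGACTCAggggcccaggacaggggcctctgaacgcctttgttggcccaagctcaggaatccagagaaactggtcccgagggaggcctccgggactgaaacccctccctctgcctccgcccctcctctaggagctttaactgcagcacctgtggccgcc
P2ry14, a receptor for UDP-sugars that was higher, has AP-1 letters from 144 bases before 1 of its starts, in a window not shown. It also has them from 202 bases before another start, in chr3:59153493-59153742 on the minus strand, shown here.
P2ry14: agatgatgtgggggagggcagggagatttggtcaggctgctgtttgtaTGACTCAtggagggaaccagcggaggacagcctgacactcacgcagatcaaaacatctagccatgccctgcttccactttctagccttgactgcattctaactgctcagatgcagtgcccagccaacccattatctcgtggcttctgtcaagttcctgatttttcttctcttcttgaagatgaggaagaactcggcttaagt
Cpn2, a carboxypeptidase N subunit that was lower, has the tighter STAT letters from 79 bases before the start, in chr16:30267533-30267782 on the minus strand.
Cpn2: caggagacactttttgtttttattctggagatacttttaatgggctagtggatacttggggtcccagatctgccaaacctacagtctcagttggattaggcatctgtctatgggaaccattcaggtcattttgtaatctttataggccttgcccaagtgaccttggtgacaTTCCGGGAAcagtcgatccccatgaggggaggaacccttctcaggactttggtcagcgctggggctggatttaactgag

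Promoter windows from 250 bases before to 50 after a start were found for 14452 of the 18193 genes. AP-1 letters occurred at a start of 10 of the 36 genes higher by at least 1 log2 that had a window (27.8%), of 9.25% of all higher genes, of 8.93% of lower genes and of 7.54% of all genes with a window. STAT letters occurred in 16.7%, 11.3%, 8.83% and 8.57% of the same groups. Of the 112 genes lower by at least 1 log2 that had a window, 13 held STAT letters (11.6%) and 11 AP-1 letters (9.82%). The tighter form was found in 1 of the 36 genes (2.78%), in 2.31% of higher, 1.25% of lower and 1.45% of all genes. The 36 genes had 53 windows between them, so that some genes had more than 1 chance of a match. These shares are descriptions of letters, and binding was not measured.

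Activin, TGF-beta and cytokine genes went both ways. Of 27 members 10 were higher and 5 lower, against 2.53% and 6.46% of all genes, and 7 or 8 and 3 to 6 without 1 pair. The list medians were 0.15, 0.15 and 0.02 at 8, 12 and 24 h. Il24, an IL-10 family cytokine, was at 5.37, 5.05 and 5.10 in control and 6.85, 7.20 and 8.13 with IL-6 plus HGF, so that its level with IL-6 plus HGF was highest at 24 h while the control stayed low; the mean difference was 2.22 ± 0.26 (adjusted p = 0.00604). Acvr1, a type I receptor for activin and BMP ligands, differed by 1.02, 1.17 and 1.20 at the 3 hours and Inhba, an activin subunit, by 1.38, 1.34 and 1.00. Other probe sets of Acvr1 differed by as little as -0.02 and that of Inhba by 0.09. Id2, a BMP-induced inhibitor of basic helix-loop-helix factors, was lower, at -1.26, -0.88 and -1.28.

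Some feedback inhibitors of ERK signalling were higher. The list of 40 immediate early genes and ERK inhibitors had 6 higher and 2 lower members. Over all genes 2.53% were higher and 6.46% lower, and the lower count of the list was near that share. With 1 pair left out 4 or 5 were called higher and 0 lower. Spred3, which restrains RAS and RAF, was at 6.02, 6.27 and 6.30 in control and 7.79, 7.57 and 8.08 with IL-6 plus HGF, with no overlap of the groups and a mean difference of 1.62 ± 0.11 (adjusted p = 0.00168). Dusp5, a nuclear ERK phosphatase, differed by 1.18, 1.38 and 0.94, and Ier3 by 0.66, 0.54 and 1.08. On the HGF side, 2 of 22 members of the Met axis were higher and 4 lower, and 0 were called either way without the pair at 24 h. Met itself was lower, at -0.59, -0.42 and -0.71 (mean -0.57 ± 0.08; adjusted p = 0.013), and so was Hpn, the hepsin protease that activates HGF, at -0.41, -0.97 and -0.68, while the adaptor gene Gab2 was higher by 0.38, 0.94 and 0.91, with other probe sets at 0.24 to 0.32. Of 12 EGF family genes 2 were higher and 2 lower, with 0 higher and 1 lower without the pair at 8 or 12 h. The calls of Met were lost without the pair at 8 h (adjusted p = 0.0578) or 24 h (0.0502), and those of Hpn (0.0566 and 0.0568) and Gab2 (0.0683 and 0.0638) without the pair at 12 or 24 h.

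Matrix, protease inhibitor and injury genes included higher genes with their largest difference at 24 h. Of 26 protease, inhibitor and matrix genes 5 were higher (2 without the pair at 12 h) and 1 lower. Among 32 injury and dedifferentiation genes 7 were higher and 1 lower. Over all genes 2.53% were higher and 6.46% lower, so both lower counts were under that share. These lists, like all others here, were written with earlier results of these data known, so their counts are descriptions. Timp1, an inhibitor of metalloproteinases, was at 8.21, 8.29 and 8.92 in control and 9.93, 10.48 and 11.82 with IL-6 plus HGF. All 3 stimulated arrays lay above the highest control, by a factor of 3.29 at 8 h and 7.46 at 24 h over the control of that hour. Havcr1, known as kidney injury molecule 1, was at 5.00, 5.10 and 4.91 in control and 6.26, 6.96 and 8.08 with IL-6 plus HGF, so that the control was almost flat and the difference ran 1.26, 1.86 and 3.17. Lmcd1, a LIM domain cofactor, differed by 1.63, 1.78 and 3.22, with a control that itself went from 6.10 to 7.66.

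Fbln2, which encodes the matrix protein fibulin 2, was at 5.38, 5.45 and 6.34 in control and 6.13, 6.85 and 9.46 with IL-6 plus HGF. Its stimulated array at 8 h lay below the control at 24 h, so the groups overlapped, and the mean difference of 1.76 ± 0.39 (adjusted p = 0.0433) was lost without the pair at 12 h (0.0847). Its other probe set differed by 0.39. The injury gene Cldn4 differed by 0.61, 1.20 and 1.68, a call that was lost without the pair at 12 h (adjusted p = 0.0534), and Ankrd1, a target of YAP, by 1.01, 0.67 and 0.71. Cd44, a receptor for hyaluronan, differed by 0.66, 1.14 and 1.14, while another of its probe sets differed by -0.08. Rdh10, which makes retinal from retinol, was at 8.99, 9.26 and 9.10 in control and 11.22, 11.58 and 11.03 with IL-6 plus HGF, with a level difference of 2.24, 2.33 and 1.92 and adjusted p = 0.00102.

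**Figure D2:**
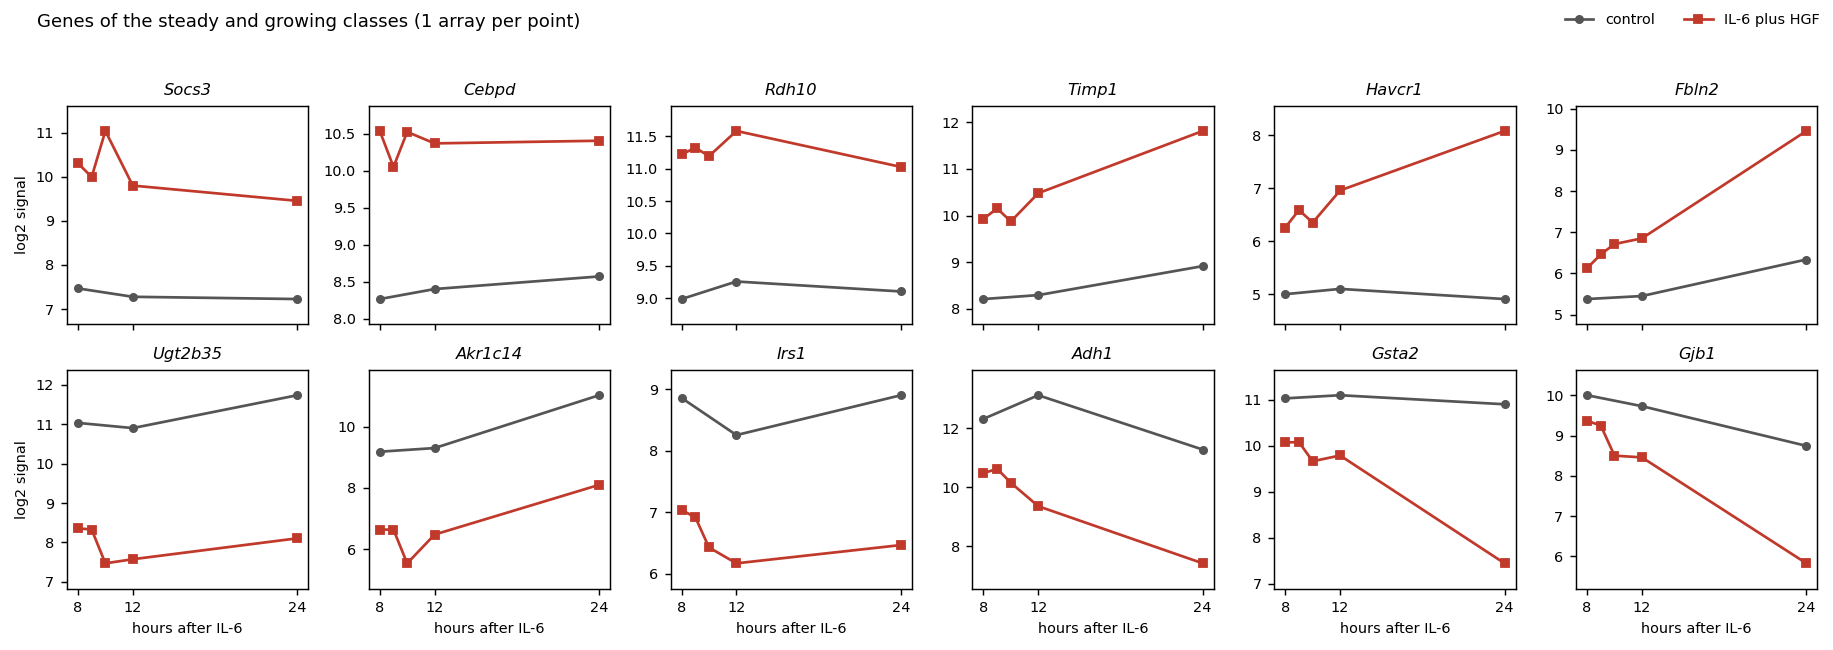
Log2 signal of 12 called genes by hour after IL-6, with control arrays at 8, 12 and 24 h as circles and stimulated arrays at 8, 9, 10, 12 and 24 h as squares, 1 array a point and a scale of its own for each gene. At 8, 12 and 24 h the lines of Socs3, Cebpd and Rdh10 are apart by about the same distance. Those of Fbln2 and Gsta2 are closest at 8 h and farthest apart at 24 h, at 3.12 and -3.46 log2.

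Some positive acute-phase genes were higher, and most were not called. Of 33 members 4 were higher and 2 lower, against 2.53% and 6.46% of all genes. Without 1 pair 3 to 5 were called higher and 2 or 3 lower. Fga, a fibrinogen chain, was at 13.05, 12.97 and 12.04 in control and 13.89, 13.57 and 13.02 with IL-6 plus HGF. Its stimulated level lay above the control at each hour, yet the groups overlapped, since both levels were lowest at 24 h. Slc39a14, a zinc and iron importer, was higher by 1.13, 0.79 and 1.08, with no overlap. Fgb, another fibrinogen chain, was higher by 0.53, 0.56 and 0.65 (mean 0.58 ± 0.07; adjusted p = 0.00813), and Saa1, an inducible serum amyloid, differed by -0.09, -0.01 and -0.12 and was not called (adjusted p = 0.582). Saa4, a constitutive serum amyloid, was lower, at -0.66, -1.64 and -0.67 (adjusted p = 0.0287, and 0.0557 without the pair at 8 h), and Vnn1, a pantetheinase, at -0.74, -0.61 and -0.89. Of 18 negative acute-phase and carrier genes 1 was higher and 2 lower, but 0 were called either way without the pair at 12 or 24 h. Of 31 complement and coagulation genes 14 were lower and 1 higher, with list medians of -0.18, -0.49 and -0.38 at 8, 12 and 24 h. Without the pair at 12 or 24 h the count called lower was 3. Masp1, a protease of the lectin pathway, was at 9.20, 8.82 and 7.18 in control and 8.27, 7.13 and 5.54 with IL-6 plus HGF, and other probe sets of it differed by -0.54 to -0.45. Klkb1, prekallikrein, was lower, at -0.66, -1.34 and -1.14 and F13b, a factor XIII subunit, at -0.57, -1.07 and -1.22. The member called higher was Pros1, protein S, an anticoagulant and a ligand of TAM receptors, by 0.76, 0.93 and 1.01. 10 of the 15 called members belonged to the growing class.

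Many conjugating enzymes, which attach glucuronate, glutathione, sulfate or methyl groups to drugs and hormones, were lower, with a difference that was larger at the later hours. Of 33 members 18 were lower (8 without the pair at 12 h) and 0 higher, against 6.46% and 2.53% of all genes, and the list median was -0.38, -0.71 and -0.74 at 8, 12 and 24 h. Members lower by at least 1 log2 numbered 3 at 8 h, 10 at 12 h and 14 at 24 h. Of the 18 called members 10 were in the growing class and 0 in the fading class. Ugt2b35, a glucuronosyltransferase, was at 11.03, 10.90 and 11.74 in control and 8.36, 7.57 and 8.10 with IL-6 plus HGF, more than 2 log2 below every control at every hour (mean -3.21 ± 0.17; adjusted p = 0.00128), or 9.27-fold lower.

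Within the glutathione transferases of the alpha class the difference was largest at 24 h. Gsta2 was at 11.03, 11.10 and 10.90 in control and 10.07, 9.79 and 7.44 with IL-6 plus HGF, with an almost level control. Gsta3 differed by -0.92, -1.69 and -2.84 and Gsta4 by -0.77, -1.38 and -2.60. The glucuronosyltransferase Ugt2b36 differed by -0.72, -1.37 and -2.49. Without the pair at 12 h the calls of Gsta2 (adjusted p = 0.0695), Gsta3 (0.0561), Gsta4 (0.0642) and Ugt2b36 (0.0683) were lost, that of Gsta2 also without the pair at 8 h (0.0557), and all 4 were lost when the variance was fitted robustly with a trend on signal. Members of these families share sequence, and signal from a close relative at a probe set cannot be told apart.

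**Figure D3:**
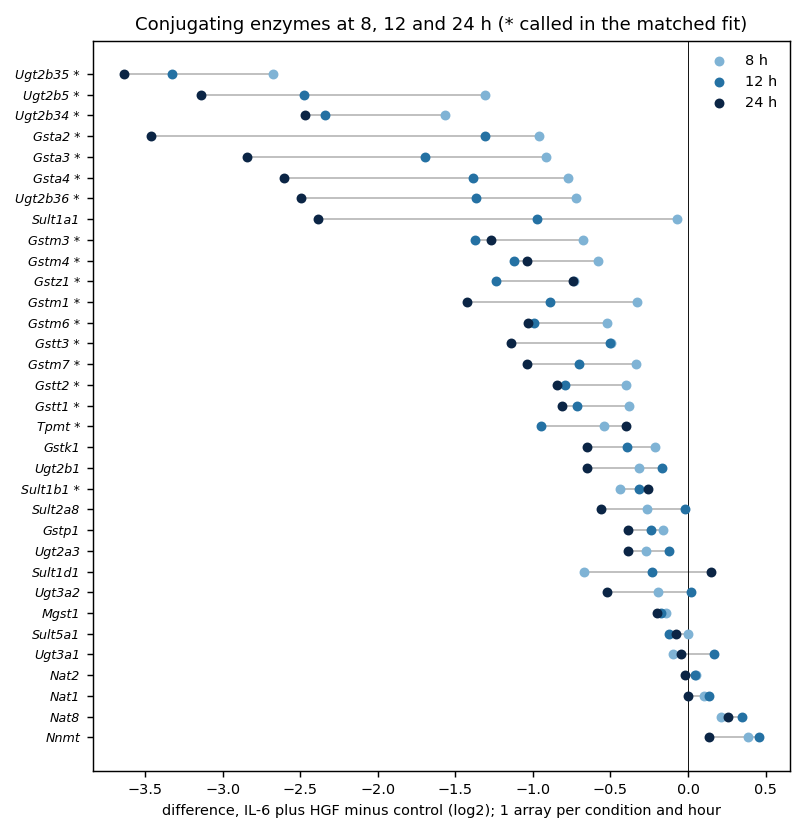
Difference (stimulated minus control, log2) at 8, 12 and 24 h for the 33 measured conjugating enzymes, sorted by the mean of the 3 hours, with an asterisk at the 18 called lower. For Gsta2 the points spread from -0.96 at 8 h to -3.46 at 24 h, and for Ugt2b35 from -2.68 to -3.63.

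Many enzymes of alcohol, retinol and carbonyl metabolism were lower. Of 46 members 26 were lower and 2 higher. Adh1, the main hepatic alcohol dehydrogenase, was at 12.31, 13.11 and 11.27 in control and 10.47, 9.35 and 7.42 with IL-6 plus HGF, so that the stimulated level at 24 h was 14.5-fold under its control, compared with 3.58-fold at 8 h. The aldo-keto reductase Akr1c14 was at 9.18, 9.30 and 11.02 in control and 6.64, 6.48 and 8.10 with IL-6 plus HGF. Both of its lines were highest at 24 h, and the difference was nearly the same at each hour (mean -2.76 ± 0.09; adjusted p = 0.000523, the smallest of any named gene). Akr1c19 differed by -1.89, -2.61 and -2.78 and Fmo5, a flavin monooxygenase, by -1.62, -3.17 and -2.27.

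Some cytochrome P450 enzymes were lower, on a control whose summed level was itself lowest at 24 h. Of 32 members 10 were lower (1 without the pair at 12 h and 2 without that at 24 h) and 1, the sterol demethylase gene Cyp51, was higher. Cyp3a11, a major drug-metabolizing P450, was at 12.91, 12.79 and 9.91 in control and 12.64, 11.72 and 8.47 with IL-6 plus HGF. The control at 24 h lay below every stimulated array of 8 and 12 h, so the groups overlapped and the call (adjusted p = 0.04) was lost without the pair at 12 h (0.132) or 24 h (0.109). Cyp2d9 differed by -0.49, -1.13 and -1.08. 7 of the 11 called members were in the growing class, and the summed level of the list was 14.14 to 15.53 log2 in control and 13.46 to 15.34 with IL-6 plus HGF.

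Most genes of amino acid and one-carbon catabolism were lower, with the largest list median at 12 h. Of 41 members 26 were lower (13 without the pair at 12 h) and 0 higher, with medians of -0.38, -0.78 and -0.62 at 8, 12 and 24 h, and 35 of 41 were negative at all 3 hours, compared with 24.6% of all genes. Chdh, which starts the oxidation of choline to betaine, was at 8.33, 8.21 and 7.39 in control and 5.91, 4.71 and 5.38 with IL-6 plus HGF. Csad, of taurine synthesis, differed by -1.36, -2.47 and -2.55, and Amdhd1, of histidine breakdown, by -1.73, -2.60 and -1.07, with its other probe set at -0.24. The stimulated levels of Chdh at 12 and 24 h lay below the median of the arrays, and so did those of Amdhd1 at each hour. Ddc, aromatic amino acid decarboxylase, differed by -2.29, -3.53 and -3.25, but its other probe set differed by 0.02. Among 14 urea cycle and ammonia genes 7 were lower, and 2 without the pair at 12 h. Cps1, the entry enzyme of the urea cycle, was at 10.36, 10.05 and 7.81 in control and 9.58, 7.90 and 6.28 with IL-6 plus HGF, and Gpt2, a mitochondrial alanine transaminase, differed by -1.31, -1.84 and -1.63.

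Many genes of glucose handling and fatty acid oxidation were lower. Of 23 genes of gluconeogenesis and hepatic glucose handling 12 were lower, and 5 without the pair at 12 h. Irs1, an insulin receptor substrate, was at 8.86, 8.25 and 8.90 in control and 7.04, 6.17 and 6.47 with IL-6 plus HGF, and Slc2a2, the glucose transporter GLUT2, at 8.76, 8.70 and 7.94 in control and 7.55, 6.59 and 5.63 with IL-6 plus HGF. Both stood below all their controls. Gys2, liver glycogen synthase, differed by -1.23, -2.05 and -1.31. Of 36 genes of fatty acid oxidation and PPAR-alpha targets 24 were lower and 0 higher (15 lower without the pair at 12 or 24 h). At all 3 hours 31 were negative, compared with 24.6% of all genes, and the medians were -0.41, -0.60 and -0.52. Bdh1, of ketone body metabolism, differed by -1.66, -2.75 and -1.92, the peroxisomal enzyme Ehhadh by -1.75, -1.69 and -1.17, and the fatty acid transporter Cd36 by -0.92, -1.03 and -2.17. In glycolysis 2 of 16 members were higher, Slc2a1 (0.67, 0.44 and 0.46) and Pkm (0.48, 0.35 and 0.68), the glucose transporter GLUT1 and the muscle-type pyruvate kinase. The Slc2a1 call was lost without the pair at 8 h (adjusted p = 0.065) and that of Pkm without the pair at 8 h (0.0822) or 24 h (0.0759).

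Many bile acid genes and hepatocyte transporters were lower. Of 20 genes of bile acid synthesis and conjugation 12 were lower, and 8 to 10 without 1 pair. Baat, which conjugates bile acids to taurine or glycine, was at 8.36, 8.44 and 6.74 in control and 6.50, 4.51 and 4.37 with IL-6 plus HGF. Its largest difference was at 12 h, and its other probe set differed by -0.94. The stimulated levels of Baat at 12 and 24 h lay below the median of the arrays. Slc27a2, a very long chain acyl-CoA synthetase, differed by -0.81, -1.93 and -1.16 and Nr1h4, the bile acid receptor FXR, by -1.40, -1.60 and -0.78. Cyp7a1, which starts bile acid synthesis from cholesterol, was at 4.63, 4.62 and 4.32 in control and 4.72, 4.52 and 4.61 with IL-6 plus HGF, below the median of the arrays in both groups, and was not called (adjusted p = 0.583). Of 31 transporters 15 were lower (8 without the pair at 12 h) and 1 higher. Abcb4, which exports phospholipid into bile, differed by -1.18, -2.22 and -1.71 and the cationic amino acid transporter Slc7a2 by -1.36, -1.48 and -1.03. Gjb1, the hepatocyte gap junction protein connexin 32, was at 10.00, 9.73 and 8.74 in control and 9.37, 8.46 and 5.83 with IL-6 plus HGF; its call (adjusted p = 0.0491) was lost without the pair at 12 h (0.0968).

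Several regulators of the hepatocyte programme were lower. The 24 transcription factors enriched in liver had 7 lower members (4 without the pair at 8 or 12 h) and 1 higher. Among 26 nuclear receptors 7 were lower and 0 higher, against 6.46% and 2.53% of all genes. Klf15, a factor of fasting metabolism, was at 6.80, 7.06 and 7.08 in control and 5.69, 5.43 and 5.92 with IL-6 plus HGF, and Creb3l3, a membrane-bound factor of lipid genes, differed by -0.77, -1.70 and -0.96. Cebpa, the C/EBP factor of mature hepatocytes, was at 8.90, 8.97 and 9.05 in control and 8.44, 8.24 and 8.17 with IL-6 plus HGF, with no overlap and a mean difference of -0.69 ± 0.10 (adjusted p = 0.0113), opposite in sign to that of Cebpd. The receptor for foreign compounds Nr1i2 (PXR) differed by -1.27, -1.82 and -1.49, Pparg by -0.94, -1.75 and -1.91 and the oestrogen receptor gene Esr1 by -0.96, -1.02 and -1.65, of which another probe set differed by 0.12. Onecut2 was the factor called higher (0.92, 0.89 and 0.31), a call lost without the pair at 8 h (adjusted p = 0.107) or 12 h (0.0923).

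**Figure D4:**
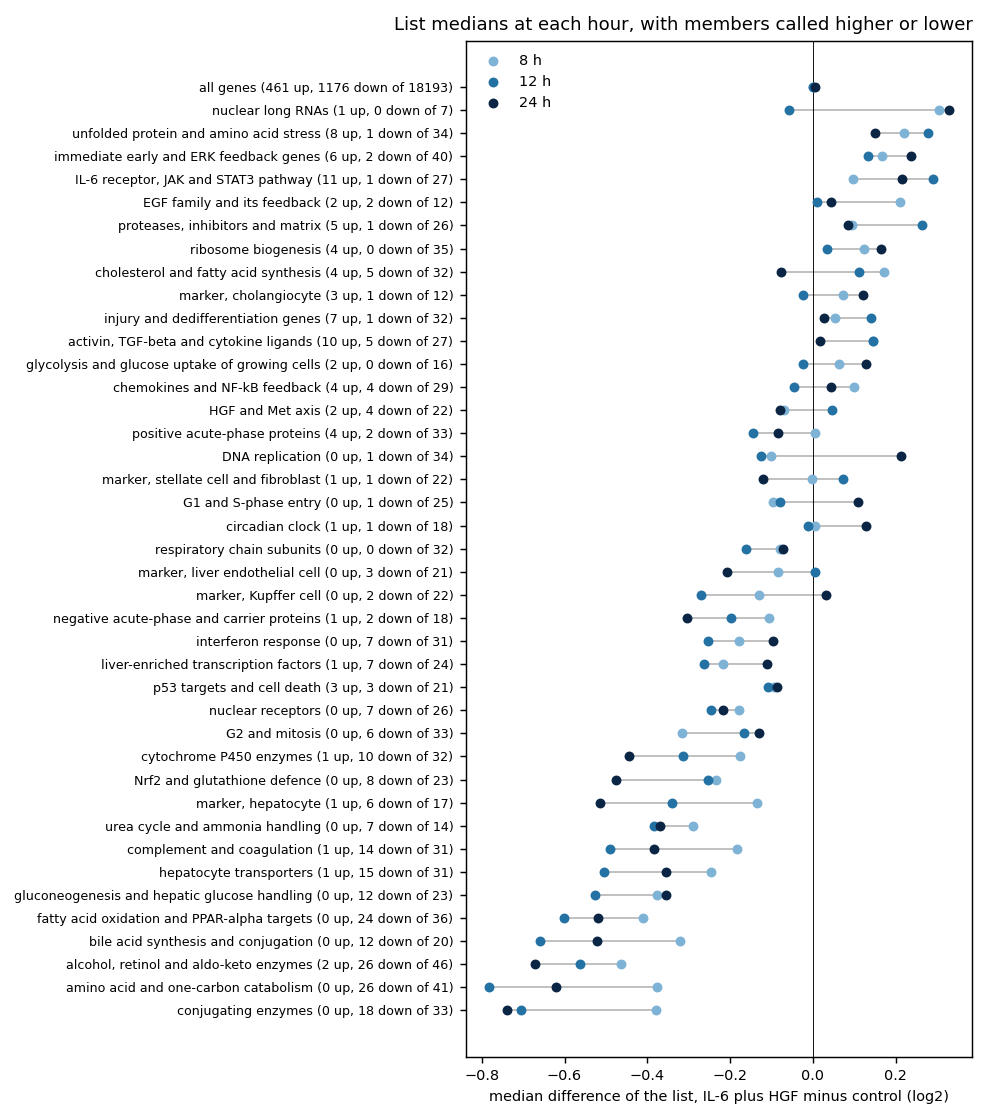
Median difference (IL-6 plus HGF minus control, log2) of each of the 40 gene lists at 8, 12 and 24 h, with all genes at the top and the members called higher and lower beside each name. The median of all genes lies within 0.01 of 0 at each hour, conjugating enzymes at -0.38, -0.71 and -0.74, and DNA replication at -0.10, -0.13 and 0.21.

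Genes of division had higher summed levels at 24 h in both groups, and most were not called. Of 33 genes of G2 and mitosis 6 were lower (3 without the pair at 8 h) and 0 higher, against 6.46% and 2.53% of all genes. Their medians were -0.32, -0.17 and -0.13. Mki67, a marker of cycling cells, was at 7.58, 7.69 and 10.16 in control and 7.00, 7.16 and 9.63 with IL-6 plus HGF. The control at 24 h exceeded every other array but the stimulated one of that hour by more than 2 log2, the groups overlapped, and the paired difference of -0.55 ± 0.07 was nearly the same at each hour (adjusted p = 0.00874). Cenpf, a kinetochore protein, differed by -0.71, -0.66 and -0.93, although its other probe sets differed by -0.22 and 0.14, and Ttk, a spindle checkpoint kinase, by -0.59, -0.71 and -0.51, with its other probe set at -0.09. Of 34 DNA replication genes 1 was lower, Tk1, thymidine kinase (-0.53, -1.14 and -0.62). Among 25 genes of G1 and S-phase entry 1 was lower, Rbl2, a pocket protein that holds cells in quiescence (-0.84, -0.46 and -0.35). Both counts were under the 6.46% of all genes called lower. Ccnd1, cyclin D1, differed by -0.14, -0.20 and -0.52, with other probe sets from -0.29 to 0.17, and was not called (adjusted p = 0.128). The DNA replication median was -0.10 and -0.13 at 8 and 12 h and 0.21 at 24 h, with no member at 1 log2 in that last hour.

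Growth arrest and death genes went both ways. Of 21 p53 target and cell death genes 3 were higher and 3 lower, against 2.53% and 6.46% of all genes. Whichever pair was left out, 1 was lower. Gadd45a differed by 0.66, 1.15 and 1.25 and the BH3-only gene Bcl2l11, which encodes BIM, by 0.70, 1.28 and 0.98. Fas, a death receptor, was lower, at -0.55, -0.73 and -0.90. The stimulated arrays of Gadd45a and Bcl2l11 lay above all their controls.

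Stress lists differed in direction. Of 34 genes of the unfolded protein and amino acid stress responses 8 were higher (2 without the pair at 8 or 12 h) and 1 lower. Over all genes the shares were 2.53% and 6.46%. In the fading class were 4 of the 9. Sdf2l1, a chaperone partner of BiP, differed by 0.75, 0.91 and 0.65, Manf, a secreted stress protein, by 0.91, 0.86 and 0.30 and Creld2 by 1.00, 1.08 and 0.27. Without the pair at 8 or 12 h the calls of Manf (adjusted p = 0.111 and 0.0985) and Creld2 (0.138 and 0.113) were lost. The cystine transporter gene Slc7a11 was the lower member (-0.44, -0.71 and -1.53), a call lost without the pair at 12 h (adjusted p = 0.0788). Of 23 genes of Nrf2 and glutathione defence 8 were lower (4 without the pair at 12 h) and 0 higher, with medians of -0.23, -0.25 and -0.48. Cbr3, a carbonyl reductase, differed by -0.85, -1.30 and -1.62, Srxn1, sulfiredoxin, by -0.52, -0.78 and -1.29 and Ugdh, which makes UDP-glucuronate, by -0.72, -0.72 and -0.98. The Srxn1 call was lost without the pair at 12 h (adjusted p = 0.0507).

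Of 31 interferon response genes 7 were lower (3 or 4 without 1 pair) and 0 higher, against 6.46% and 2.53% of all genes. Gbp6, a guanylate-binding protein, differed by -0.86, -0.90 and -0.70 and Ifit1 by -0.60, -0.62 and -0.69, both with stimulated arrays below their controls at the same hour each time. Among 29 chemokine and NF-kB feedback genes 4 were higher and 4 lower, and 2 each way without the pair at 8 or 12 h. Ccl2, the monocyte chemokine MCP-1, was at 11.33, 11.50 and 12.02 in control and 10.45, 10.54 and 11.13 with IL-6 plus HGF, and its difference was almost level. Nfkbiz, an inducible IkB protein, was higher by 0.85, 0.73 and 1.00. Of 35 ribosome biogenesis genes 4 were higher, each by under 0.5 log2 in the mean, with 0 called without the pair at 8 or 12 h and 1 without that at 24 h, and 20 were positive at all 3 hours, compared with 23.6% of all genes. In the respiratory chain 0 of 32 subunits were called in limma, while 4 had an unadjusted p under 0.05, compared with 24.9% of all genes. At all 3 hours 27 were negative, compared with 24.6% of all genes, with small list medians of -0.08, -0.16 and -0.07. Ndufa5 and Ndufv2 were called with a trend on signal and robust variance (adjusted p = 0.0193 and 0.0221) and with dim genes left out (0.0401 and 0.0499), and Ndufa5 also after median centring (0.043). The largest differences there were -0.29 for Ndufa5 (adjusted p = 0.0706) and -0.25 for Ndufv2 (0.0913). Of 32 cholesterol and fatty acid synthesis genes 4 were higher (0 without the pair at 8 or 12 h) and 5 lower. Among 18 clock genes 1 was higher, Bhlhe40 (0.42, 0.37 and 0.56), and 1 lower, Cry2 (-0.49, -0.36 and -0.33). Over all genes 2.53% were higher and 6.46% lower, and the clock counts were near those shares. The calls of Bhlhe40 and Cry2 were lost without any 1 of the 3 pairs (adjusted p from 0.0583 to 0.0787 and from 0.0719 to 0.121).

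Among the genes with a much smaller difference at 24 h than at 8 h, some had a control that approached the stimulated level and others a stimulated level that approached the control. Arg1, which makes urea from arginine, was at 9.89, 9.35 and 6.36 in control and 6.83, 5.85 and 5.72 with IL-6 plus HGF. Its control moved by -3.53 log2 between 8 and 24 h, while the stimulated level was already low, so the difference ran -3.06, -3.50 and -0.64. Its call (adjusted p = 0.0337) was lost without the pair at 8 h (0.146) or 12 h (0.0997). Pck1, the gate enzyme of gluconeogenesis, was at 6.50, 7.17 and 3.89 in control and 3.59, 3.54 and 3.57 with IL-6 plus HGF, with stimulated arrays near the low end of the scale, and missed the threshold (adjusted p = 0.0534), with other probe sets from -1.44 to 0.19. Acnat2, a bile acid-CoA acyltransferase relative, was at 7.57, 8.09 and 5.67 in control and 5.78, 4.45 and 4.91 with IL-6 plus HGF. Its stimulated levels at 12 and 24 h lay below the median of the arrays. The Acnat2 call (adjusted p = 0.0443, limma) was lost without the pair at 8 h (0.13).

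Tdo2, which opens tryptophan breakdown, was at 9.42, 9.47 and 9.60 in control and 7.00, 7.12 and 9.04 with IL-6 plus HGF. The control was flat, and the stimulated level was low from 8 to 12 h, with 7.15 and 7.21 at 9 and 10 h, and stood 1.47-fold under the control at 24 h against 5.37-fold at 8 h. The Tdo2 call (adjusted p = 0.0279) was lost without the pair at 8 h (0.118) or 12 h (0.0931). Other probe sets of Tdo2 had mean differences of -0.99 and -0.94, compared with -1.78 for the one shown. Among higher genes, the zinc transporter gene Slc39a10 differed by 1.49, 1.13 and 0.49, a call lost without the pair at 8 h (adjusted p = 0.0618) or 12 h (0.0664), and the nuclear RNA Malat1 by 2.24, 1.35 and 1.08. Hamp, hepcidin, an iron hormone induced by STAT3, was at 6.18, 6.35 and 9.21 in control and 7.93, 7.58 and 8.45 with IL-6 plus HGF. Its stimulated level stood above the control at 8 and 12 h and below it at 24 h, where the control was highest, and it was not called (adjusted p = 0.335).

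Over all called genes of the fading class the stimulated arrays carried more of the change between 8 and 24 h. In 24 of the 28 higher genes and 44 of the 63 lower genes the stimulated level moved farther between those hours than the control level did. In the growing class this held for 69 of 80 higher and 143 of 212 lower genes, and over all genes for 10413 of 18193. The median move of the stimulated level was -0.48 log2 in the higher fading genes and 0.91 in the higher growing genes, compared with -0.03 and 0.22 for the control. These are moves between single arrays with no test.

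**Figure D5:**
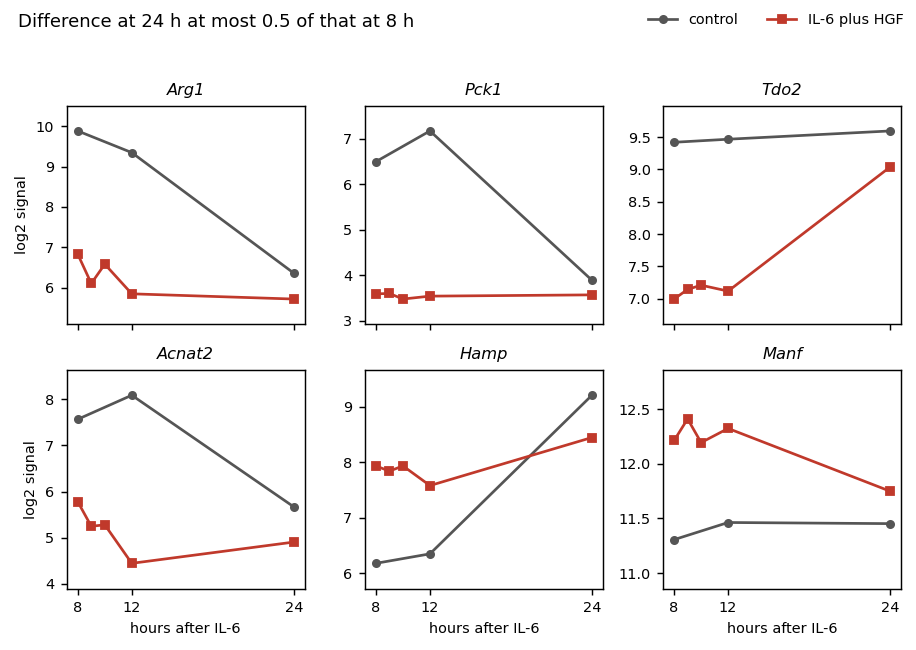
Log2 signal of 6 genes whose difference at 24 h was at most 0.5 of that at 8 h, by hour after IL-6, with control as circles and IL-6 plus HGF as squares, 1 array a point and a scale of its own for each gene. The control lines of Arg1 and Pck1 end near the stimulated line at 24 h (6.36 and 3.89), whereas in Tdo2 the stimulated line ends near the control (9.04).

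Differences present at 24 h and small at 8 h included genes that the matched fit could not call. Sult1e1, oestrogen sulfotransferase, was at 7.67, 6.46 and 5.84 in control and 7.97, 8.30 and 9.21 with IL-6 plus HGF, with a control that was lowest and a stimulated level that was highest at 24 h (adjusted p = 0.0701). P2ry12, a receptor for ADP, was at 4.45, 4.42 and 4.67 in control and 4.04, 5.08 and 7.08 with IL-6 plus HGF, below the control at 8 h and above it at 24 h (adjusted p = 0.288). Tnnt2, cardiac troponin T, was at 4.50, 5.13 and 6.49 in control and 4.74, 5.75 and 9.30 with IL-6 plus HGF, and Hmga2, a chromatin protein of growing cells, differed by 0.17, 0.73 and 1.56; the other probe sets of Tnnt2 ran from -0.05 to 1.47 in the mean and those of Hmga2 from -0.05 to 0.84. In the test of change with the hour P2ry12 changed by 1.89 ± 0.19 log2 per doubling of the hour (SE; adjusted p = 0.114, limma), Ugt2b36 by -1.17 ± 0.13 (0.114) and Gjb1 by -1.45 ± 0.22 (0.227), and none passed. With the hour itself in place of its logarithm 5 genes passed upward, P2ry12, Tnnt2, Fbln2, Elmod1 and Bcl2l15, and 3 downward, Gsta2, Sult1a1 and Ugt2b36, with adjusted p from 0.0144 to 0.0411. P2ry12 and 4933417E11Rik passed without the IL-6 plus HGF array at 10 h (adjusted p = 0.043), and Pck1 without the control at 8 h (0.00461).

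The nuclear RNA Malat1 was higher and in the fading class. It was at 9.62, 9.35 and 9.81 in control and 11.86, 10.69 and 10.90 with IL-6 plus HGF, with 11.40 and 12.68 at 9 and 10 h. Its 6 other probe sets had mean differences from 0.72 to 1.60. Neat1, another nuclear RNA, was at 8.49, 10.05 and 8.10 in control and 10.11, 8.68 and 8.35 with IL-6 plus HGF and was not called (adjusted p = 0.865). Of 7 listed nuclear RNAs 1 was called. Their part in the other differences was not tested.

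Of the 143 called genes that the rule named, 85 kept their call whichever 1 of the 3 pairs was left out, and 29 kept it in the fit without the hour block. The 29 included Socs3, Cebpd, Rdh10, Spred3, Il24, Junb, Inhba and Acvr1 on the higher side and Ugt2b35, Ddc, Chdh, Akr1c19, Irs1, Bdh1, Csad and Gpt2 on the lower side.

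For scale, without the pair at 8, 12 or 24 h the calls over all genes fell to 228, 178 and 207 higher and 615, 407 and 552 lower, in fits of fewer arrays. Some calls described above without a limit also depended on 1 pair, as the adjusted p in limma without it shows. Without the pair at 8 h the call was lost for Rbl2 (0.093). Without the pair at 12 h the call was lost for P2ry14 (0.0619) and Rbl2 (0.077). With the trend on signal and robust variance, calls were lost for Lmcd1 (adjusted p = 0.0864), Havcr1 (0.114), Fbln2 (0.262), Malat1 (0.0661), Cldn4 (0.0742) and P2ry14 (0.0818) among the higher genes. Among the lower genes they were lost for Adh1 (0.111), Baat (0.104), Arg1 (0.245), Fmo5 (0.0607), Cpn2 (0.124), Tdo2 (0.219), Acnat2 (0.275), Gjb1 (0.286), Saa4 (0.0667), Cyp3a11 (0.187), Cps1 (0.0804), Amdhd1 (0.0523), Cd36 (0.0835) and Slc7a11 (0.061). With the hour as a covariate over 8 arrays those of Mki67 (adjusted p = 0.222), Cyp3a11 (0.135), Onecut2 (0.136), Ifit1 (0.0924), Cry2 (0.248) and Gab2 (0.0509) were lost, while Pck1 (0.0153) and Sult1e1 (0.0364) were called. The mean of all probe sets ended the calls of Cenpf (adjusted p = 0.148) and Slc7a11 (0.0502). Fbln2, Acnat2, Gsta2 and Gjb1 lost theirs both with that mean (adjusted p from 0.0525 to 0.0621) and with quantile normalization (from 0.0517 to 0.0638).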

How the data were processed

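The deposited values were log2 signals of 45101 probe sets on 18 arrays, as the authors' value table gives them; how they were summarized and normalized was not given in the sources used here. Medians of the 6 arrays ran from 5.469 to 5.568. Control probe sets (64) were left out. Of the others 34945 had 1 gene symbol, 932 several and 9224 none, and those with 1 symbol gave 18193 genes, each by its probe set of highest mean. limma 3.58.1 in R 4.3.3 fitted stimulus and hour to 6 arrays (2 residual degrees of freedom), and a change with log2 hour to 8 arrays (4), calling genes at a Benjamini-Hochberg adjusted p under 0.05 over every gene. Scripts were tested on simulated data. The hours pair the arrays, since each hour had its own control. Members, lists and tests were chosen with earlier results of these data known. Genes were named by size of difference, 12 each way, 6 in each class of time course, 10 by the change with hour and up to 4 of each list, with 11 fixed genes. Osmr, Socs2, Pim1, Pim3, Il4ra, Il1r1, Stat3, Lifr, Cyp51, Neat1, Bcl2l15, Sult1a1 and 4933417E11Rik were named after their values were seen. The alternatives changed normalization, centring, filter, probe set rule, variance model, hour term, size and left-out arrays.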

Additional observations from a re-analysis of the deposited data

How the results depend on the processing

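The counts of genes higher and lower at matched hours stayed within a factor of 1.5 under quantile normalization, median centring, the filter on dim genes, the mean of all probe sets, the intensity trend and the hour as a covariate. Without the hour block they were 48 and 94, and with at least 1 log2 required as well 49 and 150. Without 1 pair of arrays they ran from 178 to 228 higher and from 407 to 615 lower, in fits with fewer arrays. For the change of the difference with the hour, where 0 genes passed, 5 passed upward and 3 downward with the hour itself, 1 and 1 with the intensity trend and robust variance, and 0 to 2 upward without 1 array. At a size of 0.5 log2, 390 genes were higher and 680 lower at 8 h, 479 and 1010 at 12 h, and 502 and 926 at 24 h. At 2 log2 the counts were 4 and 8, 7 and 42, and 17 and 33. With the mean of all probe sets 47 genes were higher by 1 log2 at 12 h. With a class ratio of 0.33 the higher genes held 5 fading and 31 growing and the lower genes 14 and 50. At 0.67 they held 73 and 141, and 180 and 396, with 600 lower genes steady. The cause of these shifts was not tested, beyond the thresholds and array numbers that define them. With 1 array for each stimulus and hour, no hour has an error of its own. Centring on the gene median was chosen after seeing the data.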
